A study of Mus musculus with 28 samples.

Results

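The effect of vorinostat on the CA1 transcriptome of transgenic mice was described from 18 libraries of 28 in the series, the 9 titled transgenic vorinostat and the 9 titled transgenic vehicle. All 18 carried the genotype labelled CamkdeltaC transgenic, a transgene for the delta C form of calcium and calmodulin dependent kinase II, and CA1 of the hippocampus was dissected at 3 months of age. Transgenic mice had been randomised at 2 months of age to drinking water with vorinostat or with vehicle alone, given for 4 weeks, and both sexes were used. The 10 other libraries came from wildtype littermates on vehicle, so vorinostat in mice that lack the transgene was not analysed here. As background, mice of this kind carry the kinase in heart muscle under a cardiac promoter and are used as a model of heart failure. Camk2d, the endogenous gene of this kinase, therefore does not check the genotype from brain RNA, and it was at 42.3, 53.6 and 105 CPM (lowest, median and highest) with vehicle and at 44.9, 71.2 and 115 CPM with vorinostat.

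Histone deacetylases remove acetyl groups from lysines of histones and other proteins, and some of them act in corepressor complexes that hold genes at low transcription. Vorinostat, also called suberoylanilide hydroxamic acid, binds the zinc in the active site of class I, IIb and IV enzymes, so acetylation rises and transcripts can move in both directions. In the hippocampus these enzymes, Hdac2 among them, are known as brakes on genes that serve synaptic plasticity and memory.

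No gene passed in the comparison of vorinostat with vehicle. By edgeR 0 of 17009 genes had an adjusted p under 0.05 (0.0% called), and the smallest adjusted p was 0.345. Without adjustment 1319 genes were higher (7.75%) and 1130 lower (6.64%) at p under 0.05, 14.4% in all. DESeq2 called 1 gene, Igfbp4, which was lower (DESeq2 adjusted p = 0.025), with 1268 genes higher and 1249 lower before adjustment. limma with voom weights called 0, with 1043 higher and 1504 lower before adjustment. Whether the 9 libraries of a group stand for 9 mice is not given in the labels, and the spread behind the p-values may be partly technical.

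Differences between the groups were small in nearly all genes. The log2 fold change, vorinostat over vehicle, was under 0.25 in size in 91.8% of genes and under 0.5 in 99.2%, with a median of 0.00 and an SD of 0.16 across genes. The precision was enough to bound most of them, since the 95% confidence interval lay inside ±0.5 for 83.0% of genes and inside ±1 for 98.7%. No gene had an interval wholly beyond 0.5 in size. A log2 fold change of 1 or more in size was reached by 5 genes, all of them lower with vorinostat and named after their values were seen. They were Lgr6 at -1.21 (a receptor that amplifies Wnt signals), Scgn at -1.25 (secretagogin, a calcium binding protein), C3 at -1.10 (complement), Rtl3 at -1.08 and Dsp at -1.03 (desmoplakin, a protein of cell junctions). Each overlapped between the groups, as did every gene tested, and the adjusted p of 0.345 or more held for these too. Mean CPM with vehicle and with vorinostat was 0.60 and 0.26 in Scgn, 0.83 and 0.39 in C3, and 0.86 and 0.41 in Rtl3. These are rare transcripts, under 1 CPM in both groups. By edgeR the unadjusted p was 0.102 for Rtl3 and 0.0572 for Dsp, and under 0.05 for the others.

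The libraries held 20319545 to 27552821 counts each. Mitochondrial genes took 6.39 to 7.48% of counts in vorinostat 6, 7 and 9, against 3.16 to 3.87% in the other 6 vorinostat libraries and 3.27 to 4.09% with vehicle. On the first principal component of the 18 libraries, which held 25% of the variance, those 3 lay at 29.9 to 48.0 and the other 15 at -15.8 to 0.52. The median over genes of the SD of log2 CPM was 0.14 with vehicle, 0.22 with vorinostat and 0.13 with vorinostat once the 3 were set aside. Results are therefore given also without the libraries over 5% mitochondrial, a fit that also leaves out wildtype vehicle 2 (6.41%) and compares 6 vorinostat with 9 vehicle libraries. In that fit 0 of 17292 genes passed by edgeR (0.0%; smallest adjusted p = 0.966), and 242 were higher (1.4%) and 422 lower (2.44%) at an unadjusted p under 0.05, with 48.3% of all genes positive. Xist, transcribed from the inactive X of females, was over 100 CPM in 5 of 9 vorinostat and 3 of 9 vehicle libraries. The mix of sexes was therefore not the same in the groups. In the fit without the libraries over 5% mitochondrial, Xist was over 100 CPM in 4 of 6 vorinostat and 3 of 9 vehicle libraries. The mix of sexes differed in that fit too.

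**Figure D1:**
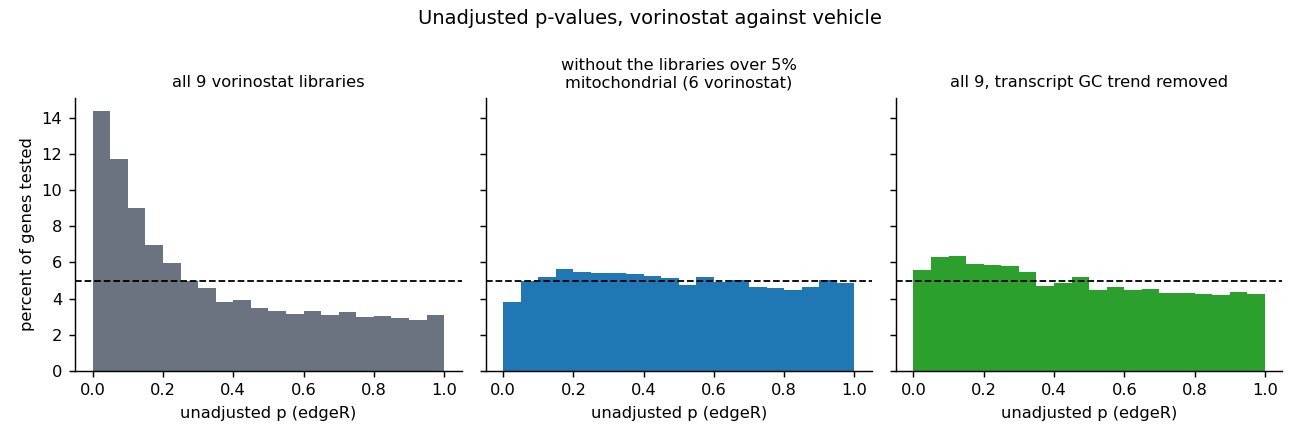
Unadjusted edgeR p-values for vorinostat against vehicle (horizontal axis, 20 bins) as the percent of genes tested (vertical axis), with a dashed line at the 5% that a flat histogram would hold in each bin. The first bin holds 14.4% of genes with all 9 vorinostat libraries, 3.84% without the libraries over 5% mitochondrial and 5.6% once the trend on transcript GC was removed in each library.

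The lowest p among all genes belonged to Igfbp4 (ENSMUSG00000017493; GRCm38 chromosome 11, 99041244 to 99054392, plus strand), which encodes a secreted protein that binds insulin-like growth factors and limits their access to receptors. Igfbp4 was at 92.9, 102 and 112 CPM (lowest, median and highest) in the 9 vehicle libraries and at 65.4, 75.4 and 99.4 CPM in the 9 vorinostat libraries. Of the vorinostat libraries 8 of 9 lay below all vehicle libraries, and vorinostat 3 overlapped them at 99.4 CPM. The means were 103 ± 5.98 and 77.9 ± 11.4 CPM (SD, n = 9 each). The fitted log2 fold change was -0.40 (SE 0.0801, 95% interval -0.56 to -0.24), and edgeR gave it an unadjusted p of 2.37e-05 and an adjusted p of 0.345. The difference was -0.31 without the libraries over 5% mitochondrial. With each of the 18 libraries left out in turn, the edgeR adjusted p of Igfbp4 ran from 0.0331, without vorinostat 3, to 0.671, without vorinostat 7. In the wildtype vehicle libraries Igfbp4 was at 69.4, 93.7 and 121 CPM, a range that covers most of both transgenic groups.

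Several other genes that were lower with vorinostat act at the cell surface or in the matrix around neurons. Eva1c (ENSMUSG00000039903; chromosome 16, 90826719 to 90905109, plus strand), which encodes a membrane receptor that binds Slit, was at 1.47, 1.85 and 2.06 CPM with vehicle and at 0.856, 1.2 and 1.64 with vorinostat. Crb2 (ENSMUSG00000035403; chromosome 2, 37776249 to 37799103, plus strand), a Crumbs protein that sets the apical side of epithelial cells, was at 5.24, 6.52 and 7.01 CPM and at 3.29, 4.41 and 5.99 CPM. In both genes all 9 vorinostat libraries were below the vehicle median and 6 were below every vehicle library. Acan, aggrecan of the perineuronal net, was at 6.97 ± 1.78 CPM with vehicle and 4.35 ± 1.43 with vorinostat (SD, n = 9 each), with overlap between the groups. The log2 fold changes were -0.51 for Eva1c, -0.46 for Crb2 and -0.68 for Acan (SE 0.114, 0.105 and 0.179), each with an edgeR adjusted p of 0.345. Acan was at -0.47, Eva1c at -0.50 and Crb2 at -0.34 without the libraries over 5% mitochondrial.

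Other genes that were lower serve synapses and neuronal signalling. Slc30a3, the transporter that loads zinc into synaptic vesicles, was at 66.5 ± 5.21 CPM with vehicle and 53.4 ± 9.97 with vorinostat (SD, n = 9 each). Grin2c, an NMDA receptor subunit, was at 71.4 ± 6.54 and 57.5 ± 9.31 CPM. Cdk5r2, the p39 activator of the kinase Cdk5, was at 199.7 ± 12.5 and 168 ± 24.5 CPM. In Grin2c and Cdk5r2 the vorinostat libraries over 5% mitochondrial were the 3 lowest of all, at 42.0 to 50.7 CPM and 132 to 150 CPM. In Slc30a3 they were at 41.9 to 50.7 CPM, and vorinostat 2 and 8, at 48.4 and 49.9, lay within that range. The log2 fold changes of Slc30a3, Grin2c and Cdk5r2 were -0.32, -0.31 and -0.25, and -0.21, -0.19 and -0.15 without those libraries. Sypl2, a relative of the vesicle protein synaptophysin, was at 3.26, 3.7 and 4.37 CPM with vehicle and 2.21, 2.71 and 3.68 with vorinostat. In Sypl2 8 of 9 vorinostat libraries were below every vehicle library. Its log2 fold change was -0.40, and -0.37 without the libraries over 5% mitochondrial.

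The transcriptional regulator Prdm8 (ENSMUSG00000035456; chromosome 5, 98167198 to 98188991, plus strand), a PRDM protein of the nervous system, was at 10.1, 14.7 and 22.9 CPM with vehicle and at 6.66, 8.47 and 13.5 with vorinostat. Its log2 fold change of -0.66 (SE 0.153) was -0.66 also without the libraries over 5% mitochondrial, and 5 of 9 vorinostat libraries were below every vehicle library. Fam160a1 was at -0.49 and -0.46, and Castor1, an arginine sensor upstream of mTORC1, at -0.41 and -0.37, with all libraries and without those over 5% mitochondrial. The rest of the 14 lower genes were Dgat2, which makes triglycerides (-0.24), the RNA binding protein gene Hnrnpa0 (-0.20) and Pmepa1, an inhibitor of transforming growth factor beta signalling (-0.21). In the fit without the libraries over 5% mitochondrial these were at -0.16, -0.10 and -0.12.

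Among the 14 genes that were higher, Hells had the smallest p. Hells (ENSMUSG00000025001; chromosome 19, 38930915 to 38971051, plus strand) encodes a helicase that remodels chromatin and supports DNA methylation. It was at 2.87, 3.46 and 3.78 CPM with vehicle and at 3.22, 3.96 and 5.36 with vorinostat, and 8 of 9 vorinostat libraries lay above every vehicle library. The exception was vorinostat 8 at 3.22 CPM, and the 3 highest were vorinostat 6, 7 and 9 at 4.89 to 5.36. The log2 fold change was 0.36 (SE 0.0857, p = 0.000186, edgeR adjusted p = 0.345), and 0.22 without the libraries over 5% mitochondrial. Lig4 (ENSMUSG00000049717; chromosome 8, 9969049 to 9977686, minus strand), the ligase of DNA end joining, was at 12.4, 13.8 and 16.7 CPM with vehicle and 15.4, 17.0 and 18.7 with vorinostat. It was at 0.27 (SE 0.0676), with 7 of 9 vorinostat libraries above every vehicle library, and at 0.22 without the libraries over 5% mitochondrial.

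Red cell and vessel transcripts were also among the higher genes. Alas2 (ENSMUSG00000025270; chromosome X, 150547375 to 150570638, plus strand), which starts heme synthesis in red cell precursors, was at 1.01, 2.35 and 2.94 CPM with vehicle and 2.9, 3.2 and 6.34 with vorinostat. Its log2 fold change of 0.81 (SE 0.209) had the same edgeR adjusted p of 0.345, and 8 of 9 vorinostat libraries lay above every vehicle library. Alas2 was at 0.61 without the libraries over 5% mitochondrial. Hbb-bt, a beta hemoglobin chain whose reads near-identical genes may share, was at 0.96 (SE 0.281), and at 0.44 without the libraries over 5% mitochondrial. Itm2a, a membrane protein gene on the endothelial marker list, was at 26.3, 30.1 and 34.1 CPM and 30.3, 34.3 and 49.7 CPM. Slc19a3, a thiamine transporter, was at 2.58 ± 0.63 and 3.62 ± 0.847 CPM (SD, n = 9 each). Itm2a and Slc19a3 were at 0.32 and 0.48, and at 0.14 and 0.27 without the libraries over 5% mitochondrial.

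The other higher genes had log2 fold changes of 0.19 to 0.52. They were Sema3c, a secreted semaphorin (0.26), the galactosyltransferase gene B3galt2 (0.35), the ceramidase gene Acer3 (0.21), Tmem168 (0.23), Spata6 (0.38), Vezt of adherens junctions (0.19), the glutaredoxin gene Glrx (0.26) and the mitochondrial tRNA gene mt-Tq (0.52). In the fit without the libraries over 5% mitochondrial Sema3c was at 0.14, B3galt2 at 0.22, Acer3 at 0.13, Tmem168 at 0.15, Spata6 at 0.34 and Vezt at 0.12. Glrx was at 31.2 to 34.0 CPM in the 3 vorinostat libraries over 5% mitochondrial and at 22.1 to 26.8 in the other 6, against 21.4 to 24.5 with vehicle. mt-Tq was at 8.52 to 11.8, 4.53 to 5.55 and 3.37 to 6.01 CPM in the same order. In Glrx and mt-Tq these 3 libraries stood above all other transgenic libraries, and their log2 fold changes without them were 0.09 and 0.15. All 28 named genes kept their sign without those libraries and 27 of 28 were smaller. They were chosen for their p-values with all libraries, so this is a description.

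**Figure D2:**
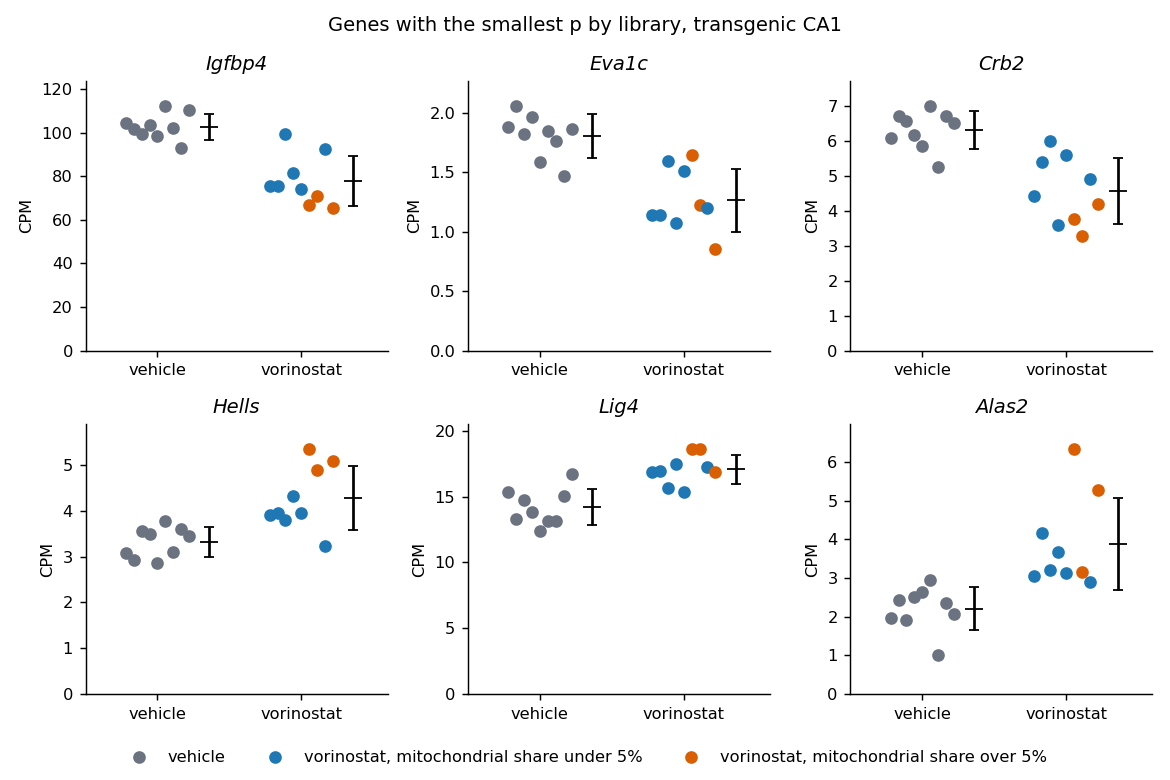
CPM (vertical axis, from 0) in each of the 18 transgenic libraries for the 3 genes of smallest p among those lower (Igfbp4, Eva1c, Crb2) and among those higher with vorinostat (Hells, Lig4, Alas2). Points are libraries, orange for vorinostat 6, 7 and 9, and black marks give the mean ± SD (n = 9 per group); in each gene the groups overlap.

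The direction of the difference followed the base composition of the transcript across genes. Among 16957 genes, Spearman's rho between the log2 fold change and the GC content of the longest transcript was -0.66. Of 1139 genes under 40% GC, 93.8% had a positive log2 fold change, with a median of 0.18, and 37.1% were higher at an unadjusted p under 0.05. Of 3688 genes at 55% GC or more, 14.5% were positive, with a median of -0.13, and 19.8% were lower at that p. Between these ends the medians were 0.11, 0.03 and -0.06 for 40 to 45, 45 to 50 and 50 to 55% GC. Genes are not independent replicates, and rho is given without a p. Without the libraries over 5% mitochondrial rho was -0.27, and the medians of the lowest and highest GC class were 0.04 and -0.03.

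Most named genes had the direction of their GC class, but some were far larger in size than its median. Acan at 54.8% GC and Prdm8 at 53.1% were at -0.68 and -0.66, where the class median was -0.06. The named genes were chosen by p in the same fit, and the median GC of all genes tested was 49.6%. Of the 14 higher genes 12 had a transcript under 50% GC, Alas2 and Hbb-bt being the exceptions, and all 14 lower genes were over 50% GC, at 51.2 to 63.9%. The ends of that range are shown by 120 bases from the middle of the coding sequence of the named genes with the lowest and the highest transcript GC, with G and C in capitals, 5′ to 3′, from GENCODE transcripts on GRCm38. B3galt2 (chromosome 1, 143640664 to 143654614, plus strand; coding bases 574 to 693) was at 50.2 ± 4.49 CPM with vehicle and 64.2 ± 10.97 with vorinostat (SD, n = 9 each), and 37 of the bases shown are G or C. Cdk5r2 (chromosome 1, 74854934 to 74857732, plus strand; coding bases 494 to 613), lower with vorinostat by the values above, has 89 of 120.
B3galt2: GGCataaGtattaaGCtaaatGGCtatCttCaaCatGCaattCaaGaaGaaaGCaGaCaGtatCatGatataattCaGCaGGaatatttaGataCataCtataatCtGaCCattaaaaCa
Cdk5r2: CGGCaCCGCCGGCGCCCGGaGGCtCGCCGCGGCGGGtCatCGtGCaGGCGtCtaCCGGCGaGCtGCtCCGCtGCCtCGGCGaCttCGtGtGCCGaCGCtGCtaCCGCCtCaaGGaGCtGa

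**Figure D3:**
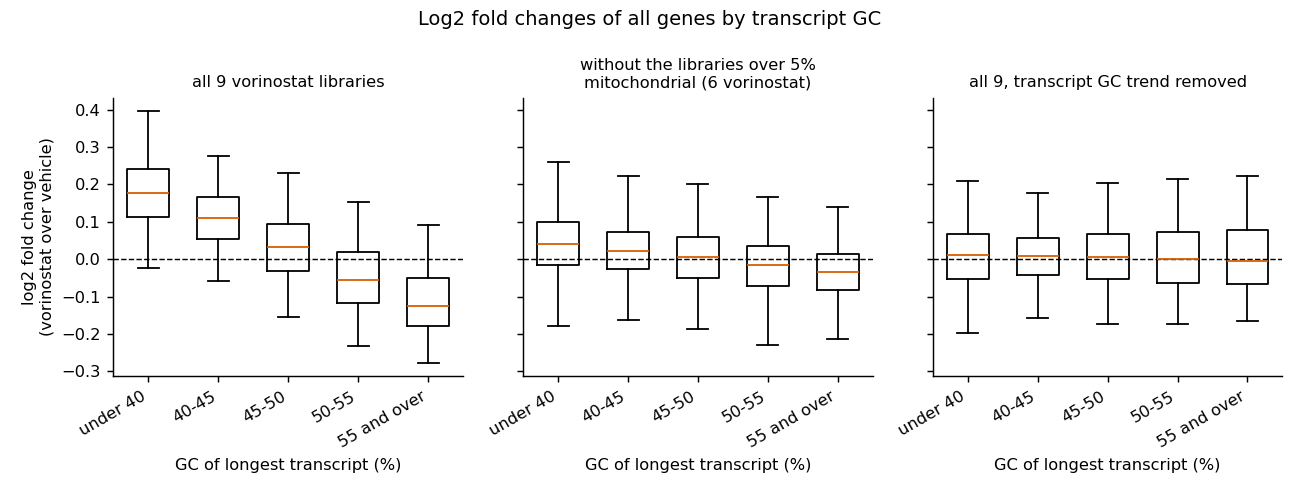
Log2 fold changes of genes (vertical axis) in classes of transcript GC (horizontal axis, percent) in 3 fits; boxes give quartiles, orange lines medians and whiskers the 5th and 95th percentiles over genes. Medians run from 0.18 down to -0.13 with all 9 vorinostat libraries and from 0.04 down to -0.03 without those over 5% mitochondrial, and lie near 0 where the GC trend was removed, as that fit does by construction.

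The tilt on GC was measured in each library as the median log2 deviation from the vehicle mean over 4434 genes under 45% GC, minus the same over 3688 genes at 55% or more. It was -0.21 to 0.13 in the 9 vehicle libraries. Vorinostat 6, 7 and 9 were at 0.53, 0.76 and 0.59, above every other library, and the other 6 vorinostat libraries were at -0.06 to 0.22 and overlapped vehicle. The wildtype vehicle library with a mitochondrial share of 6.41% was at 0.39, the highest of its group, where the lowest was -0.40. Mean GC weighted by counts, mitochondrial genes left out, was 50.4 ± 0.15% with vehicle and 50.0 ± 0.48% with vorinostat (SD, n = 9 each; two-sided exact permutation p = 0.0239). This measure was chosen after the pattern was seen, and the p was 0.0835 adjusted over 7 library measures and 0.232 unadjusted without the libraries over 5% mitochondrial. The tilt moved with the mitochondrial share in the same 3 vorinostat libraries, and the part of either in the differences between groups was not tested.

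**Figure D4:**
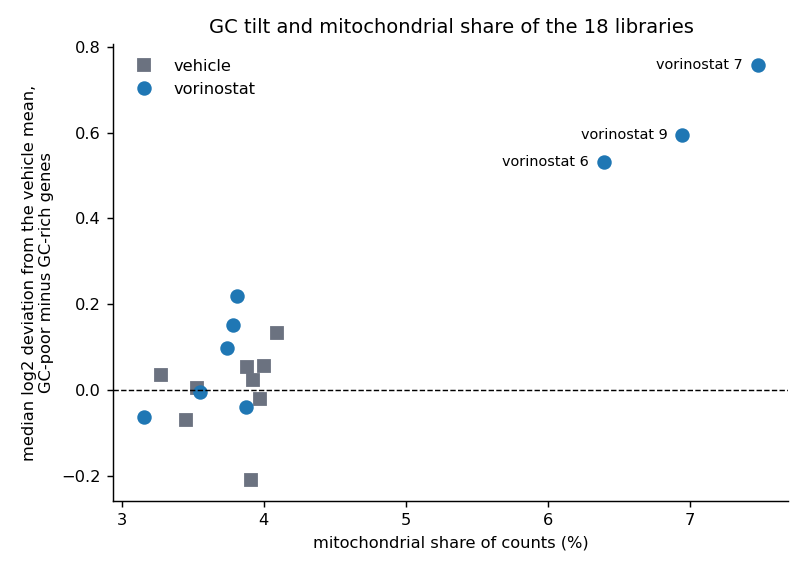
Tilt of each library on transcript GC (vertical axis, log2; 0 is the vehicle mean) against its mitochondrial share of counts (horizontal axis, percent) for 9 vehicle (grey squares) and 9 vorinostat libraries (blue circles). Vorinostat 6, 7 and 9 stand apart on both axes at 0.53 to 0.76 and 6.39 to 7.48%.

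With a smooth trend on GC removed in each library, a fit added after seeing the data, 0 genes passed by edgeR (0.0%; smallest adjusted p = 0.816), and 564 were higher (3.32%) and 389 lower (2.29%) at an unadjusted p under 0.05, with 51.5% of all genes positive. Such a fit also removes any drug effect that itself follows GC. All 28 named genes kept their sign in it and 26 were smaller. Igfbp4 was then at -0.31, Prdm8 at -0.59, Acan at -0.60 and Alas2 at 0.89, while B3galt2 went from 0.35 to 0.15 and Cdk5r2 from -0.25 to -0.08. Gene length had a rho of 0.01 with the log2 fold change over all libraries. It was 0.19 without those over 5% mitochondrial, where 65.0% of genes of 100 kb or more were positive against 41.0% of genes under 5 kb.

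None of the enzymes that vorinostat inhibits passed. Of the 7 genes of classes I, IIb and IV that were tested, 2 had a positive log2 fold change and the median was -0.04, beside 50.9% positive and a median of 0.00 over all genes. Hdac2, the class I enzyme named above, was at 74.0, 81.6 and 83.9 CPM with vehicle and 72.3, 81.3 and 105 with vorinostat. Its highest values were vorinostat 6, 7 and 9 at 99.0 to 105 CPM, and its log2 fold change of 0.11 was -0.04 without them. Hdac10, a class IIb enzyme that deacetylates polyamines, had the smallest p (0.0425) and was at 18.2 ± 1.4 CPM with vehicle and 16.1 ± 2.37 with vorinostat (SD, n = 9 each; -0.18, and -0.09 without the libraries over 5% mitochondrial). The class I genes Hdac1, Hdac3 and Hdac8 were at -0.06, -0.03 and 0.05. Hdac6, which deacetylates tubulin, and the class IV gene Hdac11 were at -0.12 and -0.04. Hdac3, at 106 ± 5.06 and 104 ± 4.36 CPM, had the narrowest 95% interval of the 7, from -0.10 to 0.05.

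Genes that write, read and remove acetyl marks differed little between the groups. Of 11 class IIa enzymes and sirtuins 3 were positive (median -0.07), with Hdac7 lowest at -0.29 and Hdac9 highest at 0.08, and at -0.09 and 0.03 without the libraries over 5% mitochondrial. Of 14 histone acetyltransferases 3 were positive (median -0.06), with Kat2a at -0.17 and Hat1, which acetylates new histone H4, at 0.23. In the fit without those libraries they were at -0.02 and 0.06. Bromodomain readers were positive in 11 of 24 (median -0.05; Atad2 highest at 0.28) and members of HDAC corepressor complexes in 7 of 30 (median -0.04; Sap30 highest at 0.14). Without the libraries over 5% mitochondrial, 9 of 14 acetyltransferases and 18 of 24 readers were positive, with medians of 0.04 and 0.02, Atad2 was at 0.09 and Sap30 at -0.11. Histone genes were positive in 10 of 19 tested (median 0.03) and in 4 of 19 without those libraries (median -0.06). The linker histone gene H1fx was at -0.24, and at -0.21 in that fit.

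Genes known to respond to HDAC inhibitors in cultured cells lay on both sides of 0, and none passed. Of 29 tested of 30 listed, 10 were positive, with a median of -0.03, and 1 was higher and 0 lower at an unadjusted p under 0.05, beside 7.75% and 6.64% of all genes. The one was Cdkn2b, an inhibitor of cell cycle kinases, at 0.497 CPM with vehicle and 0.665 with vorinostat (log2 0.43, p = 0.0164, and 0.57 without the libraries over 5% mitochondrial). Cdkn1a, which encodes p21 and is induced by these drugs in many cell lines, was at 5.33 CPM with vehicle and 4.56 with vorinostat (log2 -0.22). It is named outside the rule for named genes, because it is the best known of these response genes. The lowest of the list was the Krüppel-like factor gene Klf2 at -0.37, and at -0.16 without the libraries over 5% mitochondrial. In that fit 1 was higher and 2 lower at an unadjusted p under 0.05, beside 1.4% and 2.44% of all genes. The lower 2, named after their values were seen, were the metallothionein genes Mt2 (-0.34, p = 0.00172) and Mt1 (-0.29, p = 0.0115), which were at -0.01 and -0.07 with all libraries.

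Lists of activity, receptor and vesicle genes of neurons had medians within 0.12 of 0, and several changed side between fits. Immediate early genes, the first to be transcribed after neurons fire, were positive in 3 of 27 (median -0.11), with Egr4 at -0.40 (p = 0.0384) and Dusp6 highest at 0.06. Without the libraries over 5% mitochondrial 16 of 27 were positive, with a median of 0.01, and Egr4 was at -0.23. Glutamate receptor genes were positive in 11 of 31 (median -0.08) and genes of vesicle release in 9 of 31 (median -0.10), with Grm8 at 0.21 and Grm2 at -0.33 as the ends of the former and Unc13c at 0.28 and Syt2 at -0.27 as those of the latter. Without those libraries 17 of 31 and 15 of 31 were positive, with medians of 0.01 and -0.00. Grm2, Unc13c and Syt2 were then at -0.13, 0.08 and -0.03. With the GC trend removed, medians of immediate early, glutamate receptor and vesicle release genes stayed negative, at -0.05, -0.05 and -0.07. Positive in that fit were 7 of 27, 9 of 31 and 9 of 31. GABA receptor subunits were positive in 11 of 14 (median 0.11), with Gabrd lowest at -0.25. That median was 0.03 without the libraries and -0.02 once the GC trend was removed, and the tested members had a median transcript GC of 42.6%.

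Several housekeeping lists changed side without the libraries over 5% mitochondrial. Nuclear genes of the respiratory chain were positive in 41 of 48 (median 0.12; Ndufv2 0.24, Uqcrc1 -0.08), proteasome genes in 26 of 29 (median 0.11; Psmc6 0.26) and cytosolic ribosomal protein genes in 39 of 43 (median 0.10; Rpl38 0.34, Rpl28 -0.13). In that fit 4 of 48, 5 of 29 and 5 of 43 were positive, with medians of -0.05, -0.05 and -0.11, and Ndufv2, Psmc6 and Rpl38 were at -0.02, 0.01 and -0.04. With the GC trend removed they stayed positive, at 0.09, 0.09 and 0.15. The 7 tested mitochondrially encoded protein genes were all positive (median 0.32, mt-Nd1 highest at 0.35), and the median was -0.04 without them. Medians of 22 of 43 lists changed sign without these libraries, and 31 of 43 were under 0.1 in size with all libraries.

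**Figure D5:**
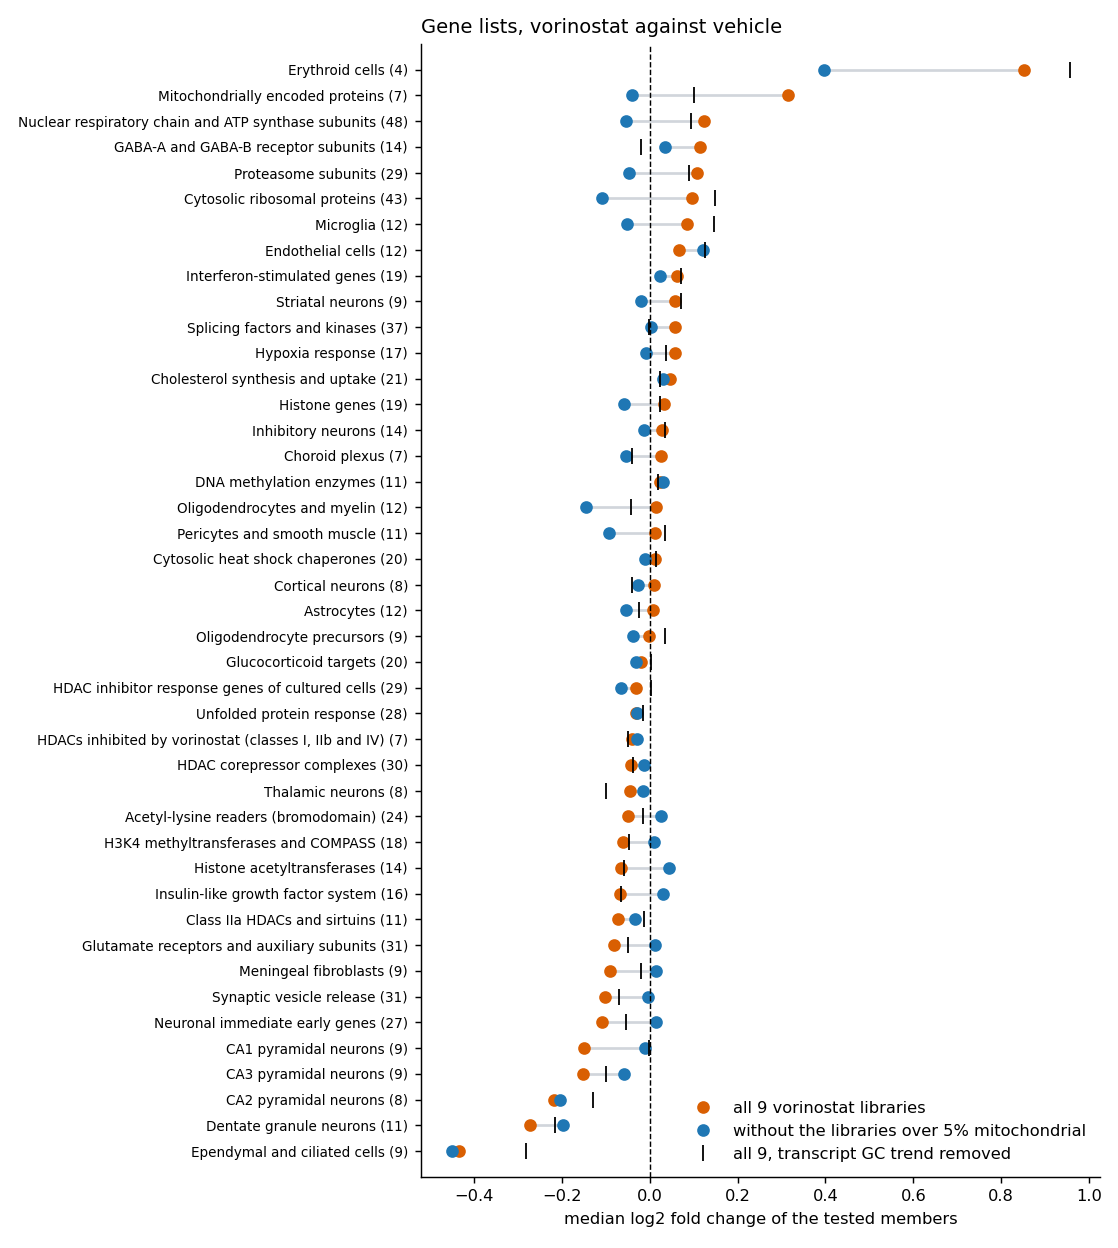
Median log2 fold change (horizontal axis) of the tested members of 43 gene lists (rows, number tested in brackets) with all 9 vorinostat libraries (orange), without the libraries over 5% mitochondrial (blue) and with the GC trend removed (black ticks). Most medians lie within 0.1 of 0; erythroid markers (0.85) and ependymal markers (-0.43) are the outermost.

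Markers of the tissue were present in both groups. Among markers of CA1 pyramidal neurons, Wfs1 was at 294 CPM with vehicle and 265 with vorinostat and Mpped1 at 461 and 442 CPM, both named as defining markers. The 9 tested markers had a median of -0.15 with 3 positive, and -0.01 without the libraries over 5% mitochondrial, in which their summed level was 1002 to 1111 CPM against 1314 to 1487 in the other vorinostat libraries and 1128 to 1675 with vehicle. These 9 markers had a median transcript GC of 57.8%, and their median was -0.00 once the GC trend was removed, with 4 positive. In bulk RNA, fewer cells of a type and less RNA per cell cannot be told apart.

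Markers of neighbouring hippocampal fields had negative medians, and none passed. Of 8 markers of CA2 pyramidal neurons 2 were positive (median -0.22), and without the libraries over 5% mitochondrial 0 of 8 were (median -0.20). Ptpn5, a tyrosine phosphatase of synapses, was at 178 CPM with vehicle and 152 with vorinostat (-0.24, p = 0.00294), the kinase gene Map3k15 at -0.75 and the matrix protein gene Vit at 0.29. In that fit these were at -0.11, -0.65 and -0.23. The summed level of the 8 was 367.4 to 421 CPM with vehicle and 282 to 366.7 CPM with vorinostat, so the groups did not overlap, by a margin under 1 CPM. Ptpn5, the member of smallest p, made up 45.4% of that sum. The sum is 1 of those of 43 lists, beside 0 of 17009 single genes whose groups did not overlap. How many list sums would separate by chance was not tested. Of 11 markers of dentate granule neurons 1 was positive (median -0.27, and -0.20 without the libraries over 5% mitochondrial), with Dsp lowest at -1.03 and Fam163b at -0.27 (p = 0.03). Their summed level overlapped, at 284 to 440.4 CPM with vehicle and 222 to 347 CPM with vorinostat. Fam163b was at -0.08 without the libraries over 5% mitochondrial, and Dsp at -1.21. Of 9 markers of CA3 pyramidal neurons 3 were positive (median -0.15, and -0.06 without those libraries), with Spock1 lowest at -0.20 and Elavl2, an RNA binding protein gene of neurons, highest at 0.22 (p = 0.0157). The summed level of the CA3 list was 622 to 901 CPM with vehicle and 679.7 to 943 CPM with vorinostat, with 0 libraries below all vehicle libraries and 2 above.

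Markers of red cells had positive log2 fold changes, endothelial markers were mostly positive, and those of pericytes and smooth muscle were mixed. The 4 tested erythroid genes, of 7 listed, were all positive, with a median of 0.85, and 0.40 without the libraries over 5% mitochondrial. Summed hemoglobin was at 16.9, 34.1 and 43.9 CPM with vehicle and at 33.4, 43.8 and 135 with vorinostat, and the 3 highest were vorinostat 6, 7 and 9 at 75.9 to 135. On the log2 scale it was 0.79 higher with vorinostat, with 9 of 9 libraries above the vehicle mean (two-sided exact permutation p = 0.00773, and 0.0541 adjusted over the 7 library measures). Without the libraries over 5% mitochondrial it was 0.36 higher, with 6 of 6 above the vehicle mean (exact permutation p = 0.0751 unadjusted, and 0.263 adjusted over the 7 library measures). Endothelial markers were positive in 9 of 12 (median 0.07), with Slco1a4, a transporter of the blood-brain barrier, highest at 0.37 and Cdh5 lowest at -0.18. Without those libraries 11 of 12 were positive, with a median of 0.12, and Slco1a4 and Cdh5 were at 0.11 and 0.08. With the GC trend removed 10 of 12 endothelial markers were positive, with a median of 0.13. Markers of pericytes and smooth muscle were positive in 6 of 11 (median 0.01) and in 3 of 11 without those libraries (median -0.09), with Des, desmin of muscle cells, lowest at -0.23. Wildtype vehicle 2, over 5% mitochondrial as well, had 101.2 CPM of hemoglobin, the highest of its group. The part of the mitochondrial share in these values was not tested.

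Microglial, myelin and astrocyte markers had small medians with all libraries. Microglial markers were positive in 10 of 12 (median 0.09), with P2ry12 at 0.34 and Tmem119 at -0.04, and in 4 of 12 without the libraries over 5% mitochondrial (median -0.05), where P2ry12 was at 0.04. Myelin genes were positive in 8 of 12 (median 0.01) and in 0 of 12 without those libraries (median -0.14), with summed levels of 3975 to 8058 CPM with vehicle and 4357 to 7837 CPM with vorinostat that overlapped in both cases. Astrocyte markers were positive in 6 of 12 (median 0.01), and in 0 of 12 without those libraries (median -0.05). Markers of ependymal and ciliated cells had the lowest median of all lists, -0.43 with 1 of 9 positive, where Foxj1, the regulator of motile cilia, was at 4.34 CPM with vehicle and 3.21 with vorinostat (-0.43, p = 0.0196). The median of the ependymal list was -0.45 without the libraries over 5% mitochondrial, with 1 of 9 positive, and -0.28 once the GC trend was removed. The summed level of the ependymal list was 35.6 to 57.3 CPM and 36.7 to 61.6 CPM, of which Ccdc39, at a log2 fold change of 0.18, made up 72.2%.

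Without the libraries over 5% mitochondrial, 5 genes had groups that did not overlap, 2 higher (0.0118% of genes tested) and 3 lower (0.0176%) with vorinostat. Csmd1, a large complement regulator of neurons, was at 99.0 to 138 CPM with vehicle and 139 to 147 in those 6 vorinostat libraries, and at 80.4 to 86.3 CPM in vorinostat 6, 7 and 9. Pno1, a ribosome assembly factor, was at 14.7 to 16.5 CPM with vehicle, 12.1 to 14.6 in the 6 and 18.7 to 24.2 in the 3. Ciao1, of iron-sulfur cluster assembly, was at 50.03 to 53.6, 48.2 to 50.01 and 57.0 to 61.3 CPM in that order. In these 3 genes the libraries over 5% mitochondrial lay on the opposite side of vehicle from the other 6. The other 2 were the unnamed transcripts Gm21817 (higher) and 1110003F10Rik (lower). None of the 5 passed in that fit (smallest edgeR adjusted p of any gene 0.966). How many genes would separate by chance was not tested.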

How the data were processed

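RNA of CA1 was sequenced as unstranded polyadenylated libraries, and the authors deposited raw read counts per gene. The notes of the submitters on processing name mm10 (GRCm38) as the build and STAR 2.5.2b, featureCounts (Subread 1.5.1) and FastQC 0.11.5 as tools; the handling of reads that match several genes is not given in the sources used here. A deposited table of values adjusted in a mixed linear model, read as log2 from their range, gave all 28 named genes the same sign, from the same libraries, and the deposited module table was not used for results.

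Groups came from the sample titles. All 48709 gene identifiers were kept for totals (48349 had a symbol in GENCODE M21). Genes were tested with edgeR 4.0.16 (quasi-likelihood, TMM, 1 fit over 28 libraries; minimum count 10, minimum total 15), with Benjamini-Hochberg adjustment at 0.05. CPM uses TMM-adjusted totals, and log2 values per library used a prior count of 2. The scripts were tested on simulated counts. Comparisons of single library values used exact permutation tests. Alternatives were DESeq2 1.42.0, voom of limma 3.58.1, surrogate variables (sva 3.50.0, 5 of them), other filters, covariates, blocks and left-out libraries, and, added after seeing the data, offsets from a smoothing spline (5 degrees of freedom) on transcript GC and the joint setting with Xist. Of the 72 pairs of libraries within the transgenic groups, 0 were identical and chi-square per degree of freedom was at least 3.37, so none were merged. The named genes are the 14 of smallest p in each direction with a mean of at least 1 CPM and a given name, the 7 inhibited HDACs, and, per list, the extreme members and that of smallest p, with genes whose groups do not overlap. Members and lists were chosen with earlier results of these data known, so no test is given for a list or a list sum. Some extreme members of lists are not reported here.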

Additional observations from a re-analysis of the deposited data

Results flagged for a closer look

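Of 78 groups of 9 libraries tested for a single far value by Dixon's test, 6 had one, where chance gives about 1 in 20. All 6 were in vehicle libraries. B3galt2 was highest in vehicle 7 at 60.4 CPM, with the next at 52.6. Slc19a3 was highest in vehicle 4 at 4.01 CPM and Spata6 in vehicle 1 at 3.53 CPM. Tmem168 was lowest in vehicle 5 at 12.9 CPM and Castor1 in vehicle 7 at 1.69 CPM. The mean transcript GC of counts was highest in vehicle 5 at 50.7%. The high values of B3galt2, Slc19a3 and Spata6 lie towards the vorinostat group, and so does the low value of Castor1.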

How the results depend on the processing

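The count of genes that passed was 0 in each direction under every alternative run, except 1 lower gene, Igfbp4, with DESeq2 and without vorinostat 3 (0 to 1 over single libraries left out). Counts at an unadjusted p under 0.05, 1319 higher and 1130 lower, were 242 and 422 without the libraries over 5% mitochondrial, 314 and 482 with Xist as a covariate as well, 269 and 452 with the mitochondrial share as a covariate, 259 and 429 with surrogate variables, and 564 and 389 with GC-corrected offsets (the second and the last chosen after seeing the data). With Xist alone as a covariate they were 2042 and 1851. Over single libraries left out they ran from 556 to 1861 and from 506 to 1740, with 735 and 561 without vorinostat 6, 556 and 506 without vorinostat 7 and 648 and 600 without vorinostat 9. Lower counts were 1740 without vorinostat 3 and 1740 without vorinostat 5. Genes whose groups do not overlap went from 0 to 5 without the libraries over 5% mitochondrial. In that setting the difference in log2 hemoglobin was 0.36, in count-weighted GC -0.105 percentage points and in mitochondrial share -0.13 (0.965 with all libraries).

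By the replicate numbers of the titles, 9 pairs of libraries had correlations of -0.25 to 0.24, with 3 over 0.1 and 2 best with their own number. By the numbers of the description field, 8 pairs had correlations of -0.16 to 0.23, with 3 over 0.1 and 3 best with their own number. With so few pairs, neither check settles whether the libraries were paired. The replicate block left 0 genes called, with 1330 higher and 1418 lower before adjustment, and a block on the numbers of the description field gave 1517 and 1571.

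Among the 28 named genes, the 7 inhibited enzymes, Camk2d and Xist, which were refitted under every alternative, signs turned for 5 enzymes and Xist. Members of lists and genes named for not overlapping also turned, with values in the report. Hdac2 was at -0.0440 without the libraries over 5% mitochondrial, -0.0268 with Xist as well, -0.0171 with GC-corrected offsets, -0.00792 with the mitochondrial covariate and -0.0546 with surrogate variables. In the same order Hdac11 was at 0.0197, 0.00084, 0.0801, 0.00107 and 0.0306, and Hdac8, in the first 4 of these settings, at -0.0297, -0.0393, -0.0503 and -0.0100. Hdac6 was at 0.0309 without the libraries, 0.0291 with Xist as well and 0.0122 with surrogate variables, which also gave Hdac3 0.0146 and Xist -0.294. The causes were not tested. Depth limits low genes: for those under 1 CPM the 95% interval lay inside ±0.5 in 24.0%, against 97.6% of genes at 10 to 100 CPM.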

Other observations

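Other gene groups are given beside 50.9% positive over all genes, and none of their members passed. Interferon-stimulated genes, which act against viruses, were positive in 11 of 19 tested (median 0.06), and in 10 of 19 without the libraries over 5% mitochondrial (median 0.02). Ifit1, the highest, was at 0.809 CPM with vehicle and 1.21 with vorinostat (log2 0.58, p = 0.0044, and 0.33 without those libraries). Cholesterol synthesis genes were positive in 13 of 21 (median 0.05), with Msmo1 at 0.18 and Srebf2, the regulator of the pathway, at -0.15, and both at 0.03 without those libraries. Splicing factors were positive in 25 of 37 (median 0.06), with 8 higher and 5 lower at an unadjusted p under 0.05, beside 7.75% and 6.64% of all genes. Clk4, a kinase of splicing factors, was at 0.22 and Nova2 at -0.24, and they were at 0.05 and 0.03 without those libraries, where 0 members were higher and 1 lower at that p. Their median transcript GC was 44.1%, and the median was -0.00 with GC-corrected offsets, with 0 higher and 1 lower.

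By chromosome, 68.2% of 569 tested genes of chromosome X (median 0.07) and 67.5% of 590 of chromosome 13 (median 0.07) were positive, against 41.3% of 1335 of chromosome 11. With GC-corrected offsets these were 56.2, 58.5 and 50.9%, and without the libraries over 5% mitochondrial 56.9, 54.1 and 42.5%. Xist was over 100 CPM in 5 of 9 vorinostat and 3 of 9 vehicle libraries, and 0 of 6 tested chromosome Y genes were positive. The part of the mix of sexes in the chromosome X share was not tested. Ccdc153, a gene of motile cilia, was at -2.02 (SE 0.735, edgeR p = 0.0111) without the libraries over 5% mitochondrial and at -0.73 with all libraries. In the fit without those libraries it was the single gene whose 95% interval lay wholly beyond 0.5 in size. The smallest adjusted p of any gene in that fit was 0.966.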
